A study of Daphnia magna with 22 samples.

Results

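The comparison set fully fed females of the GB clone of the water flea Daphnia magna against fully fed females of the IL clone. Its members were the 6 control libraries, 3 of GB and 3 of IL, chosen by their labels from the 22 RNA sequencing libraries of the series. GB came from a permanent London lake and was described by the submitters as long-lived. IL came from a Jerusalem pond that dries in summer and was described as moderately long-lived. Each library held the body of 1 female aged about 75 days, sampled within a day of laying, with her eggs removed. Both clones received 400000 algal cells per mL each day and a daily 2 h bath in plain medium, the handling that stood in for exposure in the treated animals. The other 16 libraries came from the same clones under caloric restriction (CR, 100000 cells per mL), under baths of 2.5 mM beta-hydroxybutyrate (BHB) or under 0.1 mM nicotinamide mononucleotide (NMN). They were used here to estimate the spread between animals and to follow the clone difference in animals the control comparison does not share. Females of a clone descended from 3 stock females, and the labels do not tie a library to one of these lineages.

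Daphnia females produce genetically identical daughters, so that animals of 1 clone share a genome and animals of different clones do not. In nature the species also makes resting eggs that survive drying, and populations of permanent and of drying waters are known to differ in life history. With 1 clone from each water body, the habitat of origin and the genotype cannot be told apart. The count table lists gene models by protein accession or by the ID of a predicted gene and pairs none of them with a name. None of the IDs was found in the RefSeq gene table given for this species (0 matched), so results are given by level, size, number of rows per ID and ID. For the same reason the labelled tissue, whole organism, was not checked against marker genes. Reads of both clones were counted on 1 set of gene models, and a difference in transcript amount cannot be told apart from a difference in gene copies or in how well the reads of a clone match the gene model. In whole bodies, fewer cells of a type and less RNA per cell cannot be told apart either.

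Libraries held 13358773 to 14353733 counted reads in GB control and 12198335 to 14225214 in IL control. The control libraries separated first by clone and then along an axis on which libraries of both clones spread. Over 4965 gene models, the root mean square difference in log2 CPM (CPM, the count as a share of the library total, scaled for library composition) was 1.54 ± 0.119 between clones (SD over 9 pairs of libraries). It was 0.986 ± 0.2 among GB libraries and 0.889 ± 0.159 among IL libraries (SD over 3 pairs each), and the smallest distance between clones, 1.40, was above the largest within a clone, 1.22. The first principal component held 59.9% of the variance and separated the clones, and the second held 23.2%. On the second, GB control replicate 2 (35.4) and IL control replicate 3 (37.5) lay at one end. GB control replicate 3 (-43.2) and IL control replicate 2 (-24) lay at the other. The deviations of GB control replicate 2 and IL control replicate 3 from their clone means had a Pearson r of 0.55 across the 4965 gene models, and those of GB control replicate 3 and IL control replicate 2 had 0.48. These gene models share libraries and depth and are not independent. Deviations from a clone mean cancel within the clone, so these correlations constrain each other and are not separate support. They were also the highest among the 9 pairs of a GB and an IL library. What sets these 4 animals apart was not tested.

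**Figure D1:**
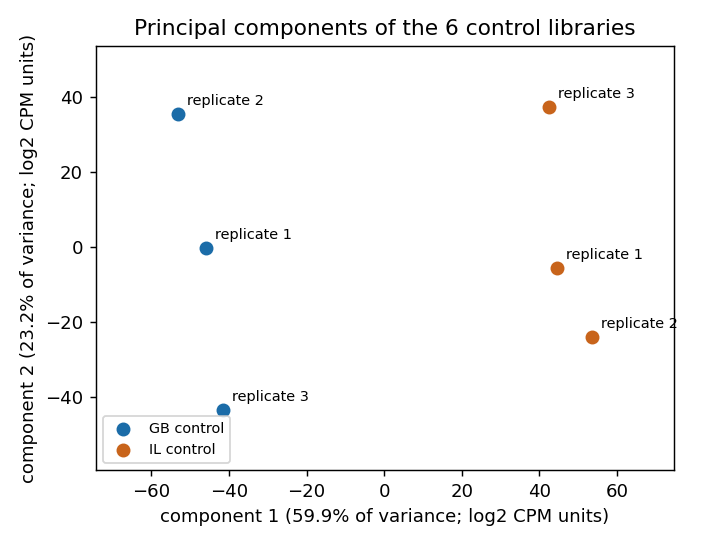
Principal components of log2 CPM in the 6 control libraries, with the first component (59.9% of the variance) across and the second (23.2%) upwards. Points are libraries; the 3 GB libraries lie left of the 3 IL libraries, and in each clone 1 library lies high and another low on the second axis.

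Spread among like-treated animals was wide in both clones. The biological coefficient of variation was 43.8% in GB control and 38.3% in IL control (n = 3 each), against 16 to 37.4% in the other 6 groups (n = 2 or 3). Pooled over all 8 groups it was 33%, below both control groups. The median SD of log2 CPM per gene model was 0.273 in GB and 0.29 in IL, and it was larger in GB for 2407 of 4965 gene models.

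The comparison asked which transcripts differ between the lake clone and the pond clone when both are well fed. Differences were common and often large. Of 4965 gene models tested, 1335 passed an adjusted p of 0.05 (26.9%), of which 735 were higher in GB (14.8%) and 600 lower in GB (12.1%). The test was the quasi-likelihood test of edgeR with Benjamini-Hochberg adjustment, fitted to all 22 libraries with a mean for each of 8 groups. After scaling, the median log2 difference over all gene models was 0.003. Among the called gene models the median was 1.95 for those higher in GB and -1.37 for those lower. In a fit of the 6 control libraries alone, 772 of 4332 passed (17.8%), 441 higher (10.2%) and 331 lower (7.64%) in GB.

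Among called gene models, large differences leaned towards GB and small ones towards IL. A change of more than 2-fold was seen in 894 of the 1335 called gene models, with 537 of them higher in GB and 357 lower. Differences over 4-fold were found in 598, of which 362 were higher and 236 lower in GB. Over 16-fold there were 314, of which 199 were higher and 115 lower in GB. Among the 441 that differed by 2-fold or less, 198 were higher and 243 lower in GB. Median-ratio size factors gave the same lean above and below 2-fold, at 544 higher and 351 lower over 2-fold and 200 higher and 227 lower at 2-fold or less. The lean was uneven between kinds of gene model. Where an ID stood on several rows, 271 called rows were higher and 168 lower in GB, against 464 and 432 for other rows. Called gene models without overlap and with at least 10 reads in each control library numbered 384 higher and 368 lower. What produced the lean was not tested. CPM values of the 3 GB and 3 IL libraries did not overlap in 1880 gene models (37.9% of those tested) and in 1288 of the 1335 called. The called gene models were chosen on the same libraries, so the latter count follows from the choice.

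**Figure D2:**
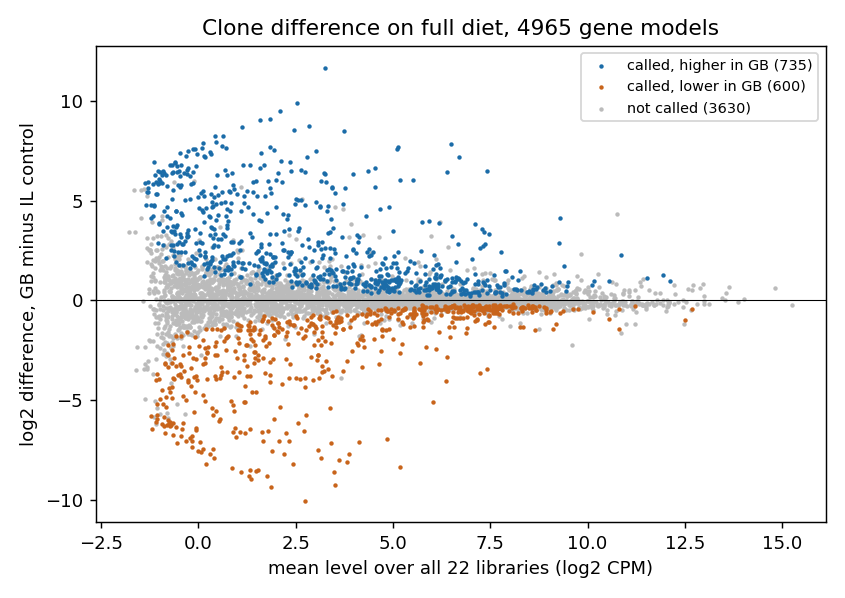
Log2 difference between GB and IL control libraries (upwards) against the mean log2 CPM over all 22 libraries (across) for 4965 gene models. Points are gene models, in blue where called higher in GB (735), in orange where called lower in GB (600) and in grey where not called; the wide differences lie at low to middle levels.

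Examples were taken from gene models with reads in every control library. At least 10 reads in each of the 6 libraries, an adjusted p under 0.05 and no overlap between clones were met by 752 gene models, 384 higher and 368 lower in GB. How many gene models had such reads, called or not, was not counted. The 752 therefore give no share to set beside the 26.9% called and 37.9% without overlap among all tested. Of the 752, the 2 with the largest rise and the 2 with the largest fall are described here. Their function is not known from the files.

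KZS20690_2, row 2 of the 7 that carry this accession, measured 191, 175 and 209 CPM in the 3 GB libraries, against 2.10, 0.841 and 0.998 CPM in the 3 IL libraries. GB libraries lay close together and far above the highest IL library. The means were 192 ± 16.6 CPM in GB and 1.31 ± 0.689 CPM in IL (SD, n = 3 each), a log2 difference of 7.19 ± 0.464 (SE, edgeR adjusted p = 1.42e-08). KZS08956 measured 285, 303 and 342 CPM in GB, against 6.23, 2.45 and 1.83 CPM in IL. Its groups did not overlap, and its log2 difference was 6.47 ± 0.628 (SE, edgeR adjusted p = 1.30e-06), or 7.16 without IL control replicate 1.

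In the other direction, maker-falcon_000036F-snap-gene-9.17, a predicted gene without a protein accession, measured 5.39, 2.35 and 1.80 CPM in GB, against 79.1, 72.8 and 174 CPM in IL. IL control replicate 3 was the high library of its clone, and GB lay far below all 3. The log2 difference was -5.09 ± 0.419 (SE, edgeR adjusted p = 1.38e-07), or -5.67 without GB control replicate 1. KZS14798 measured 2.92, 9.73 and 2.47 CPM in GB, against 100.3, 70.7 and 73.5 CPM in IL. Its log2 difference was -4.02 ± 1.05 (SE, edgeR adjusted p = 0.01), with a standard error wider than those of the other 3. That difference was -4.91 without GB control replicate 2, its highest GB library, and the adjusted p was 0.049 without GB control replicate 1 and 0.0472 without GB control replicate 3.

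**Figure D3:**
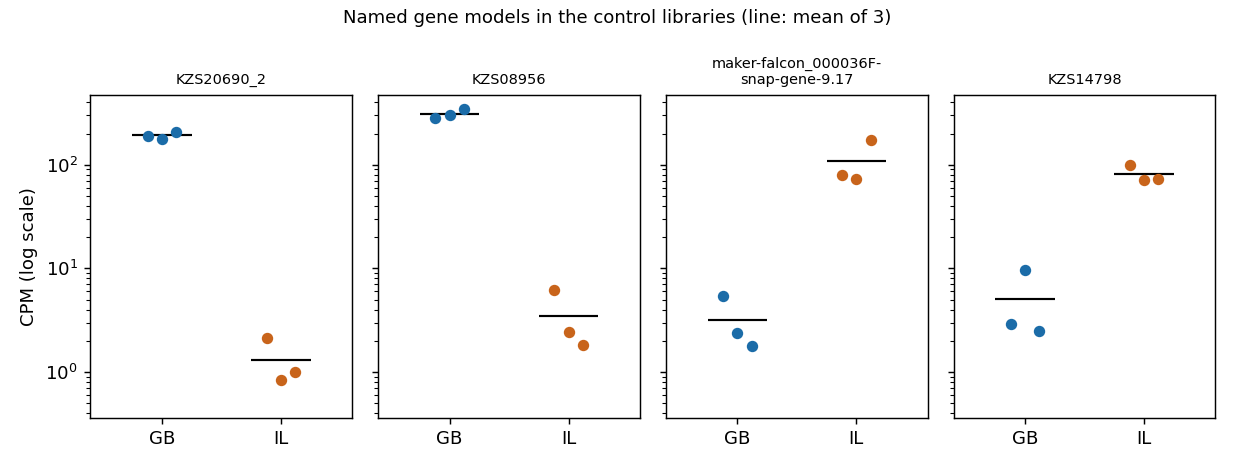
CPM (log scale) of the 4 named gene models in the 3 GB and 3 IL control libraries; points are libraries and lines are means of 3. The first pair lies between 175 and 342 CPM in GB and at up to 6.23 CPM in IL, and the second pair lies under 10 CPM in GB and between 70.7 and 174 CPM in IL.

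KZS14798 did not pass between the clones in CR, BHB or NMN (edgeR adjusted p = 0.934, 0.522 and 0.268). In GB it measured 100 ± 50.0 CPM in CR, 68.6 ± 84.7 CPM in BHB (SD, n = 3 each) and 3.50 and 63.8 CPM in the 2 NMN libraries, against 5.04 ± 4.07 CPM in control (n = 3). In IL the means were 114 ± 41.7 CPM in CR, 129 ± 65.1 CPM in BHB (n = 3 each) and 132 ± 36.8 CPM in NMN (n = 2), against 81.5 ± 16.3 CPM in control (n = 3). GB control had the lowest mean of the 8 groups. KZS14798 was chosen for its fall in control, and that choice favours a low GB control mean and a smaller difference elsewhere. The clone difference was -0.18 on the log2 scale in CR and -4.02 in control, but the test of this change, which uses the same control value, did not pass (interaction 3.83 ± 1.36, SE, edgeR adjusted p = 0.477). KZS20690_2, KZS08956 and maker-falcon_000036F-snap-gene-9.17 passed in all of CR, BHB and NMN, with log2 differences of 5.67 to 7.19, 5.84 to 7.64 and -6.44 to -5.75.

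The clones differed less among the most abundant transcripts. None of the 10 most abundant gene models in control passed, and of the 100 most abundant 8 did, 4 in each direction (8%, against 26.9% of all). The most abundant gene model, at rank 1, had 59132, 20652 and 65245 CPM in GB, against 85434, 56752 and 27893 CPM in IL, and its groups overlapped widely (log2 difference -0.23 ± 0.687, SE, adjusted p = 0.85). The lowest library of each clone was the one at the high end of the second component. The highest-ranked gene model that passed, at rank 14, had 5270, 3985 and 6613 CPM in GB, against 9390, 13990 and 8507 CPM in IL. The clones did not overlap, and GB was 2.01-fold lower (log2 difference -1.01 ± 0.317, SE, edgeR adjusted p = 0.0245). This gene model did not pass in the fit of the control libraries alone. At rank 28, the most abundant gene model higher in GB had 6424, 5991 and 7323 CPM in GB, against 3086, 3828 and 3142 CPM in IL. Its log2 difference was 0.97 ± 0.201 (SE, edgeR adjusted p = 0.00127). The 10 most abundant together took 19.3 ± 1.90% of counts in GB and 17.2 ± 2.66% in IL (SD, n = 3 each). This difference did not pass a two-sided exact permutation test (p = 0.3, where 0.1 is the smallest that 3 against 3 allows).

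The called gene models made up a small part of the RNA. Those higher in GB held 6.59, 6.99 and 7.04% of counts in the GB libraries, against 3.26, 3.17 and 3.36% in the IL libraries. Those lower in GB held 4.94, 4.27 and 4.88% in GB, against 7.27, 8.61 and 7.22% in IL. These shares describe gene models chosen on the same libraries and carry no test.

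With gene models ranked by mean level and divided into 4 classes of equal size, the share called was 29.8% in class 1, the lowest, 34.4% in class 2, 26.1% in class 3 and 17.2% in class 4, the highest. Differences over 4-fold were concentrated at the low end, with 321 and 219 called gene models in classes 1 and 2 against 43 and 15 in classes 3 and 4. The median absolute log2 difference over all gene models of a class was 1.17, 0.62, 0.26 and 0.22, in the same order. A gene model of low level could pass the count filter through the clone where it was high. The filter therefore favours large differences in the low classes, and this trend with level carries no test. The same limit holds for the share of all gene models set beside the most abundant ones.

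Some accessions stand on several rows of the table, as copies or parts of a gene would, and the clones differed more often in these. Of 1038 tested rows whose ID is on more than 1 row, 439 were called (42.3%), 271 higher and 168 lower in GB. Of 3927 rows with an ID of their own, 896 were called (22.8%), 464 higher and 432 lower in GB. Rows of repeated IDs had lower levels (median log2 CPM 1.5 against 5.03). Within each of the 4 classes of level the order was the same: 42.2% against 22.3% in the lowest, 52.6% against 28.4%, 34.9% against 24.7%, and 22.7% against 16.8% in the highest. Predicted genes without an accession were called in 116 of 421 (27.6%) and protein accessions in 1219 of 4544 (26.8%). How reads that match several copies were counted is not given in the sources used here, and its part in these shares was not tested. Of all 6372 rows of repeated IDs 1038 passed the count filter, against 3927 of 8285 others. The part of the filter in these shares was not tested either.

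**Figure D4:**
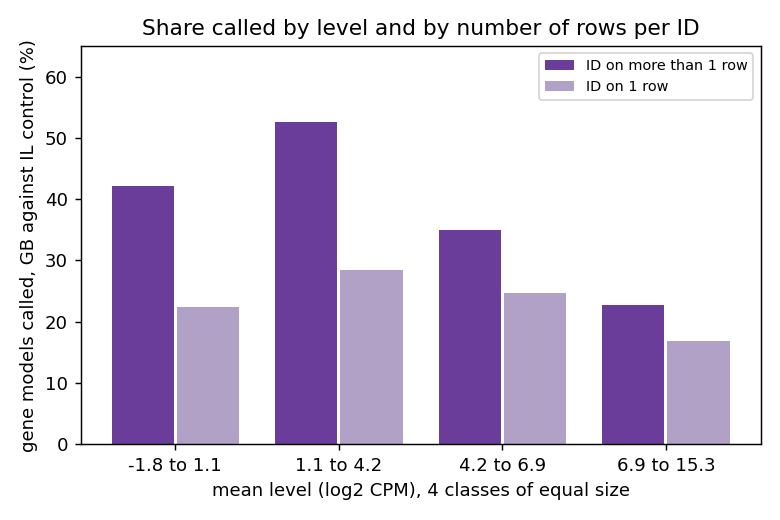
Percent of tested gene models called between GB and IL control (upwards) in 4 classes of mean log2 CPM (across), for IDs on more than 1 row (dark bars) and IDs on 1 row (pale bars). The dark bar is higher in each class, with 52.6% against 28.4% at the widest gap.

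Rows of 1 ID could differ in opposite directions. Among 266 IDs with at least 2 tested rows, 167 had a row that was called. All tested rows were higher in GB in 27 IDs and lower in GB in 14, and 22 IDs had 1 or more rows called higher and 1 or more called lower. In 17 of these 22, the summed CPM of the rows differed by less than 2-fold between clones. The 22 were chosen for rows called in opposite directions, which places the difference of the sum between those of the rows. An abundant row that differs little can also set the sum, as in KZS05826, with rows at 5.63 and -0.36 on the log2 scale and a sum at -0.21. The same share was not counted for other IDs, so the 17 carry no test of balance between rows. The row of largest rise in the 17 IDs had a median log2 difference of 3.24 and the row of largest fall one of -1.08, and over all 22 the medians were 3.29 and -2.11. KZS20690 is one of the 22. Row 2 of this ID had 7492 reads in GB control and 49 in IL control. Row 3 had 837 in GB and 1110 in IL, and row 4 had 35 in GB and 537 in IL. A row with nearly all its reads in GB therefore stood beside one with most of its reads in IL. Summed over its rows, KZS20690 had a log2 difference of 2.28, against 7.19 for row 2 alone. With the rows of each ID summed, 267 of 701 such IDs were called (38.1%), against 860 of 3927 others (21.9%).

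Some gene models were read in 1 clone alone among the control libraries. With at least 10 reads in each control library of a clone and 0 in the 3 of the other, 22 gene models were read in GB only and 25 in IL only. Against a floor of 3 counts over the 3 libraries at 0, the GB ones were at least 11.3-fold to 406-fold higher in GB, with a median of 25.6. The IL ones were at least 15.2-fold to 150-fold lower in GB, with a median of 28.6. These bounds cover counting error only. The 406-fold value belongs to a gene model with 167, 1108 and 15 reads in the GB libraries and is at least 84.4-fold without GB control replicate 2. The top IL gene model had 153, 170 and 102 reads. The number read in GB only was 36 without IL control replicate 1 and 34 without IL control replicate 3. Leaving out a library relaxes the rule, so these counts could not fall. Of the 22, 11 had an ID on more than 1 row (50%), and of the 25, 16 had (64%). Such IDs held 6372 of the 14657 rows of the table and 1038 of the 4965 rows tested. Whether the 22 and 25 differ from these shares was not tested. In the other 16 libraries the 22 had 7111 reads in 8 GB libraries and 82 in 8 IL libraries, with up to 8 for a single gene model in 1 IL library. The 25 had 60 reads in the 8 GB libraries, with up to 4 for a single gene model in 1 library, and 7724 in the 8 IL libraries. Only 8 of the 22 had no read in any of these IL libraries, and only 4 of the 25 had none in any of these GB libraries. Most of them were therefore read at a low level in the other clone. No library went against its clone label in these gene models.

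The clone difference was followed into animals that the control fit does not share. Calls came from the 6 control libraries alone (772), and each treatment was fitted alone. In CR, 733 of the 772 could be tested, 710 of them had the same sign (96.9%) and 544 passed in the same direction. These are 70.5% of the control calls and 66.7% of the 816 CR calls (19.2% of the gene models tested in CR). In BHB 721 of 728 had the same sign (99%) and 565 passed in the same direction, which are 73.2% of the control calls and 63.4% of 891 BHB calls (20.9% of those tested). In NMN, with 2 libraries a clone, 738 of 746 had the same sign (98.9%) and 539 passed, which are 69.8% of the control calls and 62.7% of 860 NMN calls (19.8% of those tested). Over all gene models tested in both, called or not, the same sign was found in 69.3% for CR, 70.5% for BHB and 78% for NMN. In all 3 treatments at once, 416 of the 772 passed in the control direction (53.9%). Only 1 control call passed in the opposite direction in a treatment, KZR97438 in CR.

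**Figure D5:**
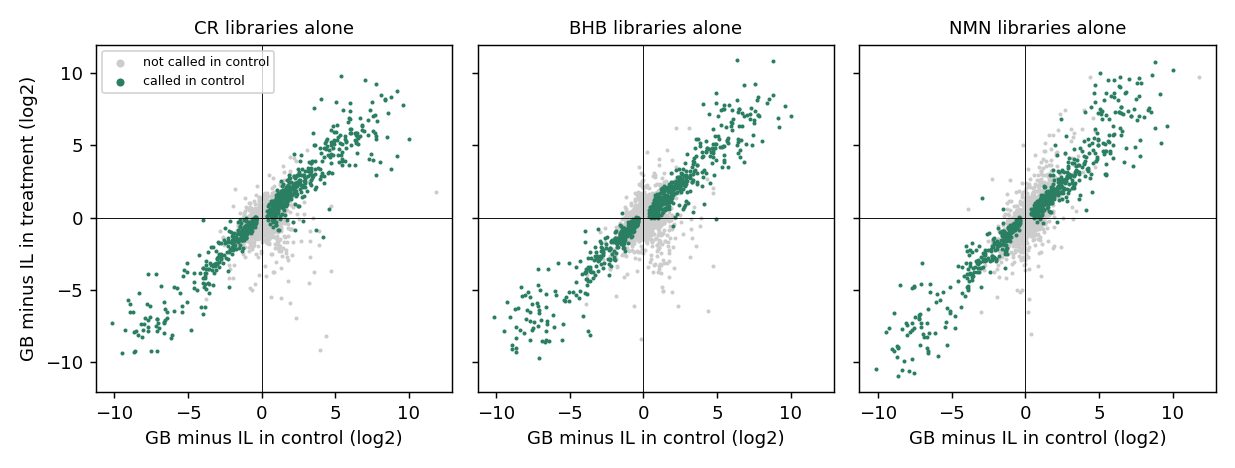
Log2 difference between GB and IL in the CR, BHB and NMN libraries (upwards) against that in the control libraries (across), each from a fit of its own libraries. Points are gene models, in green where called in control and in grey where not; 96.9%, 99% and 98.9% of the tested control calls have the same sign in CR, BHB and NMN.

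Whether the clone difference changed with treatment was tested as an interaction. With edgeR 0 of 4965 gene models passed for CR (0%), BHB (0%) and NMN (0%), and 411, 377 and 154 had an unadjusted p under 0.05. DESeq2 called 26 for CR, of which GB minus IL was higher under CR in 2 and lower in 24, 1 for BHB and 0 for NMN. The 95% interval of the interaction lay within 2-fold either way in 451, 476 and 462 of the 1335 control calls (33.8%, 35.7% and 34.6%), so for most of them a change of 2-fold in the clone difference was not excluded. In the 8-group fit, 1154 gene models differed between the clones in CR (23.2%), 1201 in BHB (24.2%) and 945 in NMN (19%). The NMN count was 590, 577 and 548 without GB NMN replicate 1, IL NMN replicate 2 and IL NMN replicate 3.

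The gene model with the smallest p for CR was KZR97438, whose order of the clones turned round. In CR it measured 10.7, 7.43 and 11 CPM in GB, against 15.6, 21.4 and 15.7 CPM in IL. In control it measured 19.1, 25.1 and 29.1 CPM in GB, against 10.0, 8.97 and 13.1 CPM in IL. The clones did not overlap under either diet. The interaction was -2.05 ± 0.354 (SE), with an edgeR adjusted p of 0.1 that did not pass and a DESeq2 adjusted p of 3.76e-05. It passed in edgeR without GB control replicate 1 (adjusted p 0.0263) or IL CR replicate 1 (0.0386). In the other direction KZS18936 had the smallest p for CR. It measured 316 ± 5.04 CPM in GB and 337 ± 26.8 CPM in IL under CR, and 225 ± 13.8 CPM in GB and 349 ± 38 CPM in IL in control (SD, n = 3 each; interaction 0.54 ± 0.136, SE, edgeR adjusted p = 0.312, DESeq2 adjusted p = 0.0487). The CR count was 4 without GB control replicate 1, 4 without IL CR replicate 1 and 1 without GB CR replicate 3.

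For BHB the smallest p belonged to KZR99871_1, the first of several rows of its ID. In BHB it measured 574, 551 and 721 CPM in GB, against 254, 324 and 270 CPM in IL. In control it measured 713, 1606 and 1238 CPM in GB, against 132, 140 and 206 CPM in IL. GB lay above IL in both, with a wider gap in control (interaction -1.77 ± 0.377, SE, edgeR adjusted p = 0.613, DESeq2 adjusted p = 0.0359). KZS12501 had 24.6, 14.8 and 37.8 CPM in GB and 4.26, 2.18 and 3.20 CPM in IL under BHB. In control it had 10.3, 6.73 and 9.07 CPM in GB and 3.70, 6.66 and 4.74 CPM in IL (interaction 2.20 ± 0.533, SE, edgeR adjusted p = 0.613). Without GB control replicate 1 the BHB count was 1, and KZR99871_1 passed (edgeR adjusted p = 0.0451).

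For NMN both gene models with the smallest p rested on 1 library. KZS13203 had 1.16 and 25.3 CPM in the GB NMN libraries and 5.31 and 5.19 CPM in the IL ones, against 1.06 ± 0.39 CPM in GB control and 8.18 ± 3.19 CPM in IL control (SD, n = 3 each). KZS06450_2 had 0.0771 and 0.416 CPM in the GB NMN libraries and 0.808 and 7.59 CPM in the IL ones, against 0.688 ± 0.388 CPM in GB control and 0.298 ± 0.142 CPM in IL control. Their interactions were 4.26 ± 1.09 and -5.28 ± 1.16 (SE), and neither passed (edgeR adjusted p = 1 for both when rounded). The NMN count was 1 without GB NMN replicate 1 and 1 without IL NMN replicate 2.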

How the data were processed

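RNA was extracted from whole females and made into directional libraries, per the labels' protocols. The authors deposited raw read counts on the sense strand for each gene model, per the labels. Of the programs in the submitters' processing notes, Trim Galore has a version (0.4.5), while FastQC, STAR and DESeq2 have none. Which program counted the reads, on which build and annotation, is not given in the sources used here.

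Groups were read from title letters. No label explains the letter L, which was taken as CR because that group remained. Each female is 1 replicate, and p-values of the 8-group fit rest on the spread between females of all 8 groups, treated ones included. Some of these females may share a lineage. Control libraries of a clone were checked for repeats of 1 library, and each pair differed beyond sampling noise (chi-square over its degrees of freedom of 155 to 480).

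The table has 14657 rows and 9831 distinct IDs, and 1546 IDs are on several rows. Every row stood as its own gene model, with a suffix where an ID repeats. Gene models were kept by edgeR's filterByExpr on 8 groups (minimum count 10, minimum total 15), scaled by TMM and tested with edgeR 4.0.16 (robust quasi-likelihood F test) in R 4.3.3. P-values were adjusted over all gene models tested, with a threshold of 0.05. CPM use TMM-scaled totals, and log2 CPM a prior count of 2. Standard errors were derived from the log2 difference and its F statistic, and interaction intervals are Wald intervals from the same fit. The fit was tested on simulated counts.

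Named gene models were the 2 largest rises and falls among those called, without overlap and with at least 10 reads in each control library. For each interaction, the smallest p in either direction decided. The comparison, lists and tests were chosen with earlier results of these data known. Lists by product name had no members, since no ID is paired with a name. Alternatives were DESeq2 1.42.0, other scaling and filters, summed rows, thinning, a replicate block, the compared groups alone, libraries left out in turn and, added after seeing the data, 1 surrogate variable (sva 3.50.0) and 2 libraries left out together.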

Additional observations from a re-analysis of the deposited data

How the results depend on the processing

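The count of 1335 gene models between GB and IL control was 1038 to 1256 with each control library left out, 987 without GB control replicate 2 and IL control replicate 3 together (added after seeing the data) and 1127 to 1462 under DESeq2, other scaling and filters, summed rows, thinning, removal of the 50 most abundant rows and 1 surrogate variable. It was 772 in the control libraries alone, where the spread comes from 6 libraries. The control groups also varied more (biological coefficient of variation 43.8% in GB and 38.3% in IL) than the 8 groups pooled (33%). The part of this in the lower count was not tested. The replicate number as a block gave 1346. Deviations of same-numbered control libraries had correlations of 0.05, -0.42 and -0.58. These values constrain each other and cannot decide whether the numbers pair the samples. All 4 named control gene models kept their direction and their call under each alternative, with adjusted p for KZS14798 of 7.93e-05 to 0.049. Counts were 816 to 1278 in CR and 891 to 1333 in BHB over all alternatives, and that in NMN was 548 to 723 with a library left out and 765 to 1110 otherwise. The CR interaction count of 0 was 26 with DESeq2, 3 without a low-count filter, 10 with 1 surrogate variable and 0 to 4 with a library left out. KZR97438 passed for CR in these 3 settings (adjusted p 3.76e-05, 0.0283 and 0.0402) and KZS18936 with DESeq2 alone of them (0.0487). The count for BHB was 1 with DESeq2 and 0 to 1 with a library left out, and that for NMN was 0 to 1. The mean distance between clones was 1.91 and that within clones 1.12 with a prior count of 0.5, and the distance between clones was 1.29 with a prior count of 5. Gene models read in GB only numbered 52 and 7 with minimums of 5 and 30 reads, and 27 to 36 with a library left out. Those read in IL only numbered 9 with a minimum of 30 reads. The direction of these changes was fixed, since a library left out or a lower minimum relaxes the rule and a higher minimum tightens it. The share of control calls with the same sign was 94.1% in CR and 95.8% in BHB for the calls of the 8-group fit. With a control library left out it was 96.5 to 98.3% in CR, 98.6 to 99.8% in BHB and 98.3 to 99.6% in NMN. The share of the 10 most abundant, 2.08 percentage points higher in GB, was 0.423 to 3.6 points higher with a library left out. No log2 difference or interaction of a named gene model changed direction where it was tested, nor did the share of the 10 most abundant. Counts, distances and shares with the same sign were not scored for direction. For the changes in interaction counts the cause was not tested. Depth limits the gene models of lowest level most, where a few reads decide a ratio.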
